A study of Homo sapiens with 6 samples.

Results

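The genes described here are 42 genes of homologous recombination and of the Fanconi anaemia pathway for DNA interstrand crosslink repair. They were taken as a list of symbols of known pathway genes, with no measured value in the rule. The list, like the other lists used here, was chosen with earlier results of these data known. All 42 are among the 57781 rows of the count table, with MRE11A listed as MRE11. The RNA came from A549, a human cell line derived from a lung adenocarcinoma, labelled NSCLC and grown in DMEM with FBS. The 3 control libraries came from cells with an empty vector, labelled WT for genotype, and the 3 shMETTL3 libraries from cells in which METTL3, the catalytic subunit of the m6A methyltransferase, was knocked down by short hairpin RNA, which the study's methods place in a pSuper-neo plasmid. Apart from the hairpin, both groups share the line and the culture conditions that the labels give. The shMETTL3 columns are numbered sh1 to sh3, so they may hold different hairpins, which is not stated in the sources used here, and the labels do not say that the libraries of a group are separate cultures. The study's methods state in general that experiments were repeated independently, without naming the sequencing. The p-values therefore measure the spread between these libraries, which may be technical.

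Homologous recombination repairs a broken chromosome by copying the sister chromatid. Nucleases resect the broken end, BRCA1, PALB2 and BRCA2 prepare the single strand for the search of the sister, the XRCC2 and XRCC3 group and the RAD54 proteins help the strands to pair, and helicases or nucleases resolve the joined molecules. When a crosslink stops a replication fork, the Fanconi core complex with the E2 enzyme UBE2T attaches ubiquitin to the FANCD2-FANCI pair, which directs the cutting of the crosslink and hands the break to recombination. Many of these genes are transcribed most in S phase and later in the cell cycle, and their promoters are known for E2F sites and for CCAAT boxes.

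Short promoter stretches of several members are given first, to show which of these known promoter letters the genes that fell and the genes that were not called hold. RefSeq promoters on GRCh38.p14, from 250 bases before to 50 after each annotated start, were matched for 37 of the 42 genes. The capitals mark 8-letter E2F matches (TTTCCCGC, TTTGGCGC, TTTCGCGC or TTTGCCGC, on either strand). The first 4 windows belong to genes that fell in the shMETTL3 libraries and the last 3 to genes that were not called, and each is written along the gene's own strand.
XRCC2, chr7:152676103-152676130, minus strand: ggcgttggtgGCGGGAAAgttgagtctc
EXO1, chr1:241848198-241848225, plus strand: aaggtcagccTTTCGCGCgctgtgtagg
FANCA, chr16:89816802-89816829, minus strand: ctacaccgcgGCGGCAAAgccaaacgca
FANCD2, chr3:10026425-10026452, plus strand: gtcgggcctgGCGGGAAAgtcgaaaact
FANCC, chr9:95317864-95317891, minus strand: cggggcttccGCGCGAAAccgggaacac
FANCC, chr9:95317738-95317765, minus strand: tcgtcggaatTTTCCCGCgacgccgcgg
GEN1, chr2:17753860-17753887, plus strand: agttgcggggTTTCGCGCcgccggagtc

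These letters were found in 6 of the 37 promoters, or 16.2%, against 3.33% of all 27305 promoters and 5.2% of the 10635 promoters of tested genes. By call, they were found in 4 of 16 genes that fell, 0 of 6 that rose and 2 of 15 that were not called. CCAAT, searched as CCAAT on either strand, was commoner and not set apart from the background, with 15 of 37 promoters, or 40.5%, against 36.1% of the promoters of tested genes. It was found in 7 of 16 genes that fell, 1 of 6 that rose (PALB2) and 7 of 15 that were not called. The cell cycle homology letters TTTGAA were in 4 promoters (10.8%, against 9.57% of those of tested genes), namely UBE2T, BRIP1, ATM and FANCC. The NRF1 letters GCGCATGC were in those of XRCC2 and SLX4 (5.41%, against 5.39%). The next 4 stretches, all upstream of the start, show CCAAT boxes and, in UBE2T, TTTGAA in capitals, first in 2 genes that fell (UBE2T and BLM) and then in 2 that were not called (MRE11A and RMI1). A match is a description of the letters and not of binding, and no match says only that these letters are not in the window.
UBE2T, chr1:202341995-202342099, minus strand: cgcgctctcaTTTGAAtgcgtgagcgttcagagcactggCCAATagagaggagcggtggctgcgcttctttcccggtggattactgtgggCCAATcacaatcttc
BLM, chr15:90717195-90717339, plus strand: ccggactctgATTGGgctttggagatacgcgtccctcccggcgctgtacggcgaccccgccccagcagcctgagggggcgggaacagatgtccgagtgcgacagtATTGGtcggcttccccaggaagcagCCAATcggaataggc
MRE11A, chr11:94493892-94493981, minus strand: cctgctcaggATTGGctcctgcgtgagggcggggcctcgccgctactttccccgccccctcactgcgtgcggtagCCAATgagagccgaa
RMI1, chr9:83980259-83980324, plus strand: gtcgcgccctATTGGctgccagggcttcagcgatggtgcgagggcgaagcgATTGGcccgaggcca

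The library totals ran from 14931426 to 19108928 counts, and levels are given as CPM, the count of a gene relative to all counts of its library after scaling by edgeR's TMM method. A floor of 3 counts in a library, for counting error alone, stands at 0.15 to 0.189 CPM. Calls of change rest on edgeR's quasi-likelihood test over the 15125 genes tested, at an adjusted p (Benjamini-Hochberg) under 0.05. The targeted gene METTL3 stood at 49.4, 50.6 and 49.5 CPM in the vector libraries and at 18.9, 19.9 and 19.3 CPM in the shMETTL3 libraries. This is a log2 fold change of -1.36 (standard error 0.067, adjusted p = 4.57e-16, edgeR), the groups did not overlap, and the two-sided exact permutation p was 0.1, the smallest that 3 against 3 libraries allow. KRT8 and KRT18, which define epithelial cells, were abundant in all libraries, although 5 of 6 epithelial markers fell, 1 rose and their summed level went from 9980-10600 to 5150-5600 CPM. The summed levels of 6 leukocyte markers (0.334-1.04 to 5.94-7.18 CPM, CD3E at 0 in every library), 3 listed endothelial markers (0-0.123 to 1.40-1.95 CPM, VWF at 0) and 6 fibroblast markers (6.46-9.87 to 14.3-14.7 CPM, COL1A2 and DCN at 0 in the vector libraries) were far below these, and each was higher in the shMETTL3 libraries. The part of these shifts in the results below was not tested. The 6 markers of alveolar type 2 cells stood at 81.1-98.3 against 73.1-75.9 CPM, nearly all of it ABCA3, with SFTPA1 at 0.

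The 42 genes fell more often than they rose. All 42 passed the filter on low counts and were tested, 19 fell, 6 rose and 17 were not called, so that 25, or 59.5%, changed against 66.6% of all genes tested. The share that changed was thus near the background, and the direction was where the genes differed from it, since 45.2% of them fell against 32.9% of all genes and 14.3% rose against 33.7%. These shares describe genes that were chosen with earlier results of these data known, and they were not tested. The median log2 fold change was -0.19 over the 42 genes, with a range from -1.38 to 0.52, and 0.00 over all genes. Library by library, the median gene lay from -0.012 to 0.007 of the vector mean on the log2 scale in vector libraries and from -0.264 to -0.202 in shMETTL3 libraries. Summed over the 42 genes, the level was 906 to 931 CPM in the vector libraries and 684 to 700 CPM in the shMETTL3 libraries.

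The changes fell into large and small ones. In 15 genes, or 35.7%, the change was at least 0.5 on the log2 scale, against 39.1% of all genes, and 14 of these 15 were falls. The 14 falls were of BLM, RMI2, FANCA, EXO1, UBE2T, XRCC3, FANCI, FANCG, FANCD2, CHEK2, WRN, CHEK1, FANCE and RAD51B, and ATR was the 1 rise. The smallest of the 14 was that of RAD51B at -0.86 and the next fall, of RAD52, was -0.44, with no gene between. The CPM of the groups did not overlap in 27 of the 42 genes, or 64.3%, against 69.4% of all genes. Scaling sets part of this picture. By library size alone, which moved the median of all genes by 0.18, the median of the 42 genes was -0.0159, and 36.0% of the called members rose instead of 24.0% (65.8% instead of 50.6% of the calls over all genes). With offsets for GC content and transcript length the median was -0.401 and 10.0% of the called members rose, against a median of -0.067 and 42.8% of the calls over all genes.

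**Figure D1:**
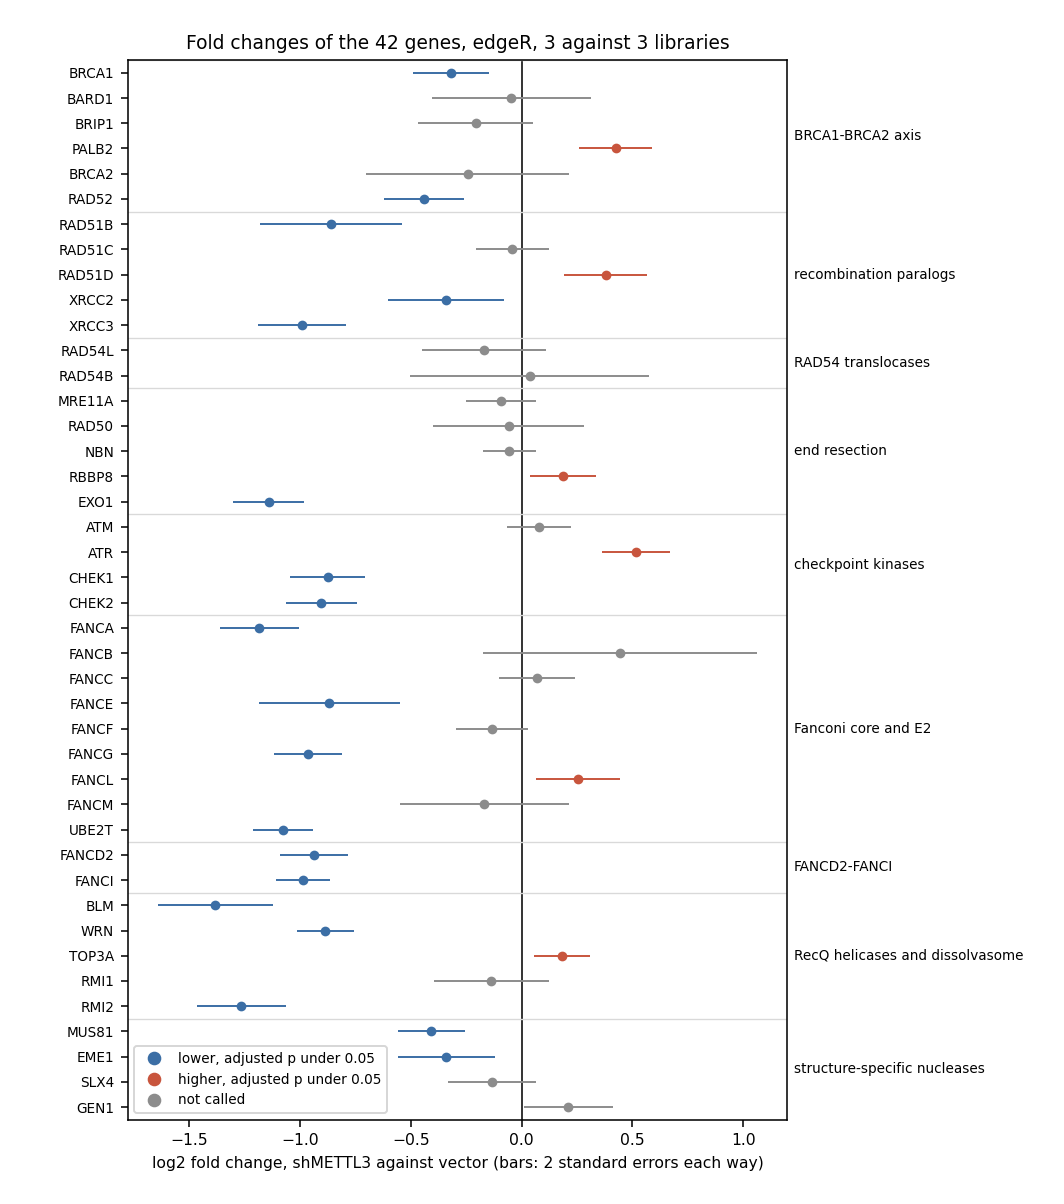
Log2 fold change of each of the 42 genes, shMETTL3 against vector, from edgeR over 3 against 3 libraries, grouped by role. Points are estimates and bars reach 2 standard errors each way. Of the genes, 19 lie to the left in blue, 6 to the right in red and 17 are grey, and the 14 largest falls lie at -0.86 or below.

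The BRCA1-BRCA2 axis, which acts on resected ends, changed little and in both directions, with 2 falls and 1 rise among 6 genes, none of them reaching 0.5. Thus 50.0% changed, against 66.6% of all genes. RAD52, a protein that anneals single strands, stood at 19.1, 17.8 and 22.1 CPM in the vector libraries and at 14.1, 14.7 and 14.5 CPM in the shMETTL3 libraries. All 3 shMETTL3 libraries were below all 3 vector libraries. The mean went from 19.7 ± 2.19 to 14.5 ± 0.296 CPM (SD, n = 3 each), a log2 fold change of -0.44 (standard error 0.09, adjusted p = 1.13e-04, edgeR). PALB2, the bridge between BRCA1 and BRCA2, went the other way, from 19.3, 16.3 and 16.9 CPM to 25, 23.1 and 22.4 CPM. Its groups did not overlap either, and its means of 17.5 ± 1.59 and 23.5 ± 1.34 CPM (SD, n = 3 each) gave a log2 fold change of 0.42 (standard error 0.083, adjusted p = 6.83e-05, edgeR). RAD52 lies on chromosome 12 of GRCh37 from 1020902 to 1099219 and PALB2 on chromosome 16 from 23614481 to 23652642, both on the minus strand.

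BRCA1, the ubiquitin ligase that promotes resection and binds PALB2, fell by 0.32 on the log2 scale (adjusted p = 0.00168, edgeR), a call lost when scaled by library size alone. The other 3 genes were not called. Their log2 fold changes were -0.047 for BARD1, the obligate partner of BRCA1 (adjusted p = 0.831), -0.21 for the helicase BRIP1 (adjusted p = 0.149) and -0.24 for BRCA2 itself (adjusted p = 0.352, edgeR). BRCA2 and BARD1 were among the lowest genes, at 2.85 and 3.64 CPM in the vector libraries, and their standard errors of 0.23 and 0.18 were wider than the 0.085 of BRCA1. Under GC and length offsets BRIP1 (-0.434) and BRCA2 (-0.494) were called lower. BRIP1 was also called lower without vector replicate 3 (-0.332), and BRCA2 was at 0.0504 without vector replicate 1. BARD1 ran from -0.168 to 0.111 when 1 library was left out. A p over the threshold does not show that a level was the same.

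The paralogs RAD51B, RAD51C, RAD51D, XRCC2 and XRCC3, which support strand exchange, split within the family, with 3 falls, 1 rise and 1 gene not called. Thus 80.0% changed, against 66.6% of all genes, of which 32.9% fell and 33.7% rose. XRCC3 was at 16.0, 16.1 and 18.0 CPM in the vector libraries and at 7.92, 8.33 and 8.94 CPM in the shMETTL3 libraries. The groups lay far apart, and the mean fell from 16.7 ± 1.11 to 8.4 ± 0.514 CPM (SD, n = 3 each), a log2 fold change of -0.99 (standard error 0.10, adjusted p = 1.59e-09, edgeR). XRCC3 (chromosome 14, 104163946 to 104181841, minus strand) shares sequence with a neighbour, and 76.68% of its exonic bases overlap exons of KLC1, a kinesin light chain gene on the other strand. KLC1 itself fell by 0.71 on the log2 scale, and since no source used here says whether strand was used in counting, reads of the pair cannot be told apart there.

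RAD51B (chromosome 14, 68286496 to 69196935, plus strand) was lower in every library, with 4.90, 5.21 and 5.64 CPM against 2.74, 2.89 and 3.02 CPM. The groups did not overlap, and the mean went from 5.25 ± 0.37 to 2.89 ± 0.139 CPM (SD, n = 3 each), a log2 fold change of -0.86 (standard error 0.16, adjusted p = 3.58e-05, edgeR). XRCC2 fell less, by 0.34 (adjusted p = 0.0241), and was not called in 5 of the 15 alternatives. RAD51D rose by a log2 fold change of 0.38 (adjusted p = 8.86e-04), whereas RAD51C, a member of both paralog complexes, was at -0.042 (adjusted p = 0.669, edgeR).

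Neither of the RAD54 translocases, which drive strand exchange, was called. RAD54L (chromosome 1, 46712133 to 46744152, plus strand) stood at 5.96, 6.11 and 6.01 CPM against 5.39, 5.04 and 5.67 CPM. The groups did not overlap, but the difference was small, with means of 6.02 ± 0.0736 and 5.36 ± 0.316 CPM (SD, n = 3 each) and a log2 fold change of -0.17 (standard error 0.14, adjusted p = 0.269, edgeR). RAD54B was near the lower end of the 42 genes with raw counts of 21, 26 and 22 in vector libraries and 28, 31 and 18 in shMETTL3 libraries. Its means were 1.36 and 1.38 CPM and its groups overlapped (log2 fold change 0.036, standard error 0.27, adjusted p = 0.916, edgeR). Of its exonic bases, 66.01% overlap FSBP on the same strand, so its count is uncertain. When 1 library was left out its log2 fold change ran from -0.0711 to 0.144.

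**Figure D2:**
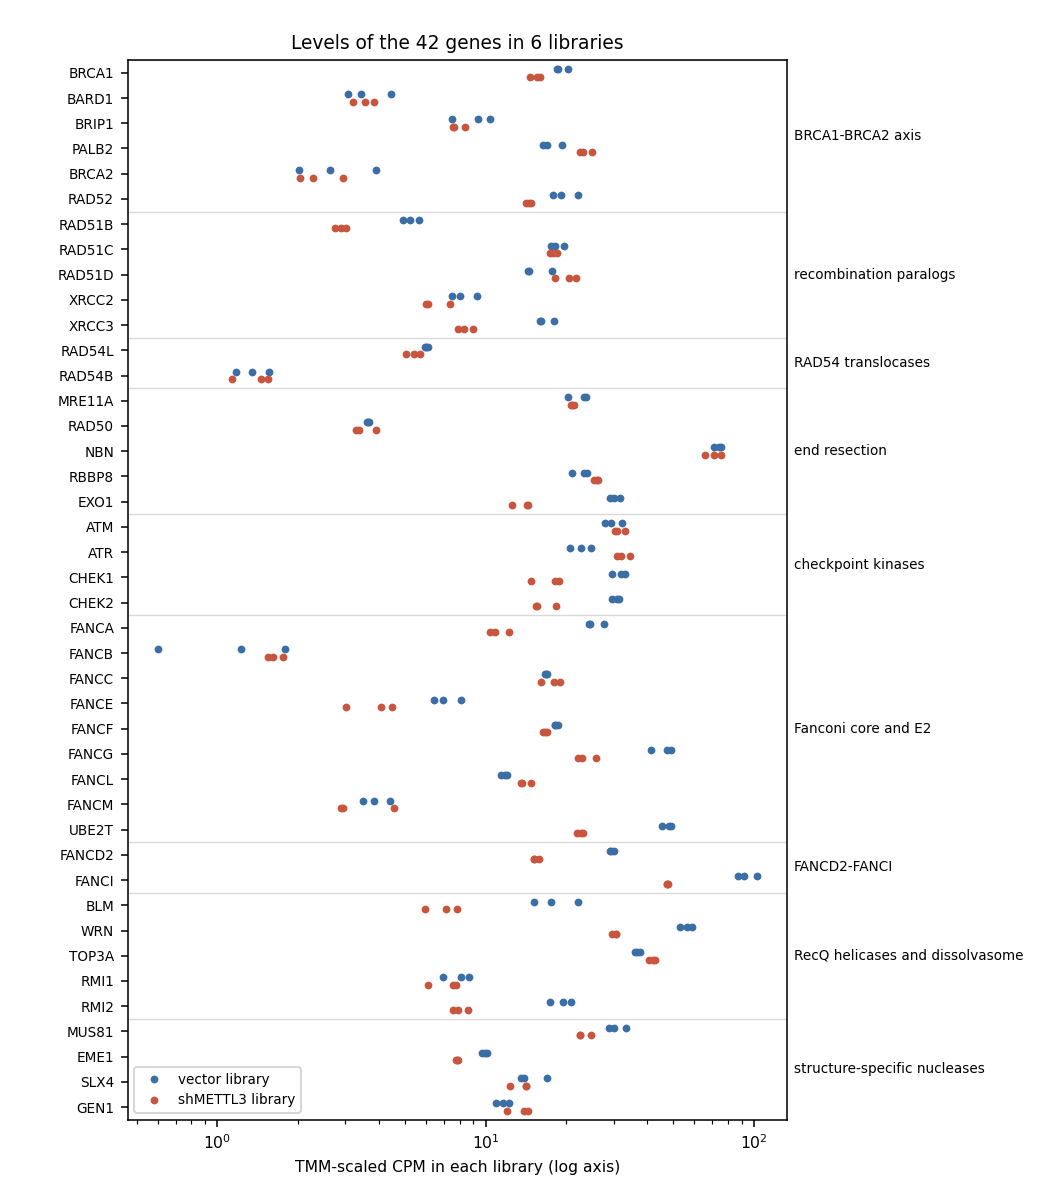
Level of each of the 42 genes in the 6 libraries, in TMM-scaled CPM on a log axis, grouped by role. Blue points are vector libraries and red points shMETTL3 libraries. The groups are apart in 27 genes, with the red points lowest relative to the blue in BLM, and overlap in genes such as NBN, RAD50 and BARD1.

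In end resection, the nuclease that extends the cut fell and RBBP8 rose, while the genes of the sensor complex were not called. EXO1, the exonuclease of long-range resection, was at 30.1, 29.0 and 31.8 CPM in the vector libraries and at 12.5, 14.3 and 14.4 CPM in the shMETTL3 libraries. The highest shMETTL3 library was below every vector library by a wide margin, and the mean fell from 30.3 ± 1.4 to 13.7 ± 1.04 CPM (SD, n = 3 each), a log2 fold change of -1.14 (standard error 0.081, adjusted p = 1.24e-12, edgeR). RBBP8, which encodes CtIP and starts resection with the sensor complex, was at 23.2, 23.9 and 21.0 CPM against 25.4, 25.9 and 26.3 CPM. Its groups did not overlap, but the rise of 0.19 (standard error 0.075, adjusted p = 0.0299, edgeR) from 22.7 ± 1.55 to 25.9 ± 0.422 CPM (SD, n = 3 each) held in 8 of 15 alternatives only. EXO1 lies on chromosome 1 from 242011269 to 242058450 and RBBP8 on chromosome 18 from 20378224 to 20606451, both on the plus strand.

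The 3 genes of the MRN complex, which senses the break and recruits ATM, were not called. Their log2 fold changes were -0.094 for the nuclease MRE11A (adjusted p = 0.3), -0.059 for RAD50 (adjusted p = 0.771) and -0.055 for NBN (adjusted p = 0.415, edgeR). NBN was at 73.4 CPM in the vector libraries and at 70.7 CPM in the shMETTL3 libraries. In CPM, not scaled by length, only FANCI was higher among the 42 genes in the vector libraries. NBN was the highest of them in the shMETTL3 libraries on that scale. Under GC and length offsets MRE11A (-0.293) and NBN (-0.291) were called lower. RAD50 is the least certain of them, since 76.9% of its exonic bases lie within a longer annotated gene on the same strand, and its level of 3.65 CPM was far below that of its partners.

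Of the checkpoint kinases, the downstream pair fell and 1 of the upstream pair rose. CHEK2, the effector kinase known as the target of ATM, was at 29.6, 31.3 and 30.8 CPM in the vector libraries and at 15.4, 15.6 and 18.3 CPM in the shMETTL3 libraries. Its mean fell from 30.6 ± 0.85 to 16.4 ± 1.62 CPM (SD, n = 3 each), a log2 fold change of -0.90 (standard error 0.08, adjusted p = 1.09e-10, edgeR). CHEK1, the effector kinase known as the target of ATR, went from 32.0, 29.6 and 33.1 CPM to 14.7, 18.8 and 18.2 CPM. As in CHEK2, no libraries of the groups overlapped, and the mean fell from 31.6 ± 1.81 to 17.2 ± 2.19 CPM (SD, n = 3 each), a log2 fold change of -0.88 (standard error 0.085, adjusted p = 7.45e-10, edgeR). CHEK2 lies on chromosome 22 (29083731 to 29138410, minus strand) and CHEK1 on chromosome 11 (125495058 to 125546150, plus strand). Rows for the CHEK2 pseudogenes CHEK2P2 to CHEK2P5 hold 0 counts in every library, and reads shared with these near copies could have been dropped or assigned to the parent gene.

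ATR, which responds to single-stranded DNA at stalled forks, had the largest rise of the 42 genes, with a log2 fold change of 0.52 (standard error 0.077, adjusted p = 1.47e-06, edgeR) from 22.7 ± 2.07 to 32.4 ± 1.82 CPM (SD, n = 3 each). ATM, which responds to breaks, was at 29.8 and 31.5 CPM (log2 fold change 0.078, adjusted p = 0.35, edgeR). The sign of ATM depended on the model, since it was called lower under GC and length offsets (-0.158) and higher when scaled by library size alone (0.251).

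The Fanconi core complex and its E2 enzyme fell in part, with 4 falls, 1 rise and 4 genes not called among 9. The share that changed, 55.6%, was below the 66.6% of all genes, and 44.4% fell against 32.9% of all genes. These shares were not tested. FANCA, a scaffold subunit, was at 24.4, 24.3 and 27.5 CPM in the vector libraries and at 12.2, 10.8 and 10.4 CPM in the shMETTL3 libraries. The groups were far apart, and the mean fell from 25.4 ± 1.79 to 11.1 ± 0.965 CPM (SD, n = 3 each), a log2 fold change of -1.18 (standard error 0.089, adjusted p = 4.4e-12, edgeR). Of its exonic bases, 19.56% overlap ZNF276 on the other strand, which fell by 0.42. UBE2T, the ubiquitin-conjugating enzyme of the pathway, was at 45.5, 48.9 and 48.4 CPM against 21.9, 22.7 and 23.1 CPM. Its mean fell from 47.6 ± 1.82 to 22.6 ± 0.622 CPM (SD, n = 3 each), a log2 fold change of -1.08 (standard error 0.067, adjusted p = 8.2e-14, edgeR), and no other gene overlaps its exons. FANCA lies on chromosome 16 from 89793091 to 89883385 and UBE2T on chromosome 1 from 202300672 to 202311112, both on the minus strand.

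Among the other core subunits, FANCG fell by 0.96 (from 46.1 to 23.6 CPM, adjusted p = 1.23e-11) and FANCE, which contacts FANCD2, by 0.87 (from 7.15 to 3.87 CPM, adjusted p = 1.89e-05, edgeR). FANCL, the ubiquitin ligase subunit that works with UBE2T, rose instead, by a log2 fold change of 0.26 (adjusted p = 0.0195, edgeR), from 11.7 to 14 CPM, and kept its call in 12 of 15 alternatives. Log2 fold changes of the genes not called were -0.13 for the adaptor FANCF (adjusted p = 0.151), 0.069 for FANCC (adjusted p = 0.491) and -0.17 for the translocase FANCM, which anchors the complex at the fork (adjusted p = 0.441, edgeR). FANCF was called lower under GC and length offsets (-0.259), and FANCC was called higher when scaled by library size alone (0.243). FANCC ran from 0.0194 to 0.135 when 1 library was left out. FANCM was at -0.421 without shMETTL3 replicate 1 and at -0.0511 without shMETTL3 replicate 2, and was called in neither. FANCB, the X-linked member, was at 1.20 CPM in the vector libraries, the lowest of the 42 genes there in CPM not scaled by length. It was at 1.64 CPM in the shMETTL3 libraries, with a log2 fold change of 0.44 (standard error 0.31, adjusted p = 0.201, edgeR). Its value ran from 0.122 to 0.815 when 1 library was left out, and it was called higher without vector replicate 3. For comparison, 376 of the 461 tested genes on chromosome X were called higher, with a median log2 fold change of 0.74.

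FANCI and FANCD2, the pair that receives the ubiquitin, fell to nearly the same extent. FANCI, the most abundant of the 42 genes in CPM in the vector libraries, was at 103, 92.2 and 87.5 CPM there and at 47.6, 47.4 and 47.7 CPM in the shMETTL3 libraries. The 3 shMETTL3 libraries lay almost on top of each other, below all vector libraries, and the mean fell from 94.1 ± 7.75 to 47.6 ± 0.126 CPM (SD, n = 3 each), a log2 fold change of -0.99 (standard error 0.061, adjusted p = 6.38e-14, edgeR). FANCD2 was at 29.0, 29.3 and 30.1 CPM against 15.2, 15.8 and 15.1 CPM. Its groups too were tight and apart, with means of 29.5 ± 0.56 and 15.4 ± 0.385 CPM (SD, n = 3 each) and a log2 fold change of -0.94 (standard error 0.076, adjusted p = 1.79e-11, edgeR). FANCI lies on chromosome 15 from 89787176 to 89860492 and FANCD2 on chromosome 3 from 10068054 to 10143616, both on the plus strand, and the row of the pseudogene FANCD2P2 holds 0 counts in every library.

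Of the RecQ helicases and the dissolvasome, which takes apart double Holliday junctions without crossover, BLM and RMI2 had the largest falls of the 42 genes. BLM, the helicase mutated in Bloom syndrome, was at 17.5, 22.1 and 15.1 CPM in the vector libraries and at 7.09, 7.83 and 5.92 CPM in the shMETTL3 libraries. The vector libraries were spread, yet the lowest of them was above every shMETTL3 library, and the mean fell from 18.3 ± 3.56 to 6.95 ± 0.963 CPM (SD, n = 3 each), a log2 fold change of -1.38 (standard error 0.13, adjusted p = 2.17e-10, edgeR). RMI2, a small accessory subunit, followed with 19.5, 20.8 and 17.3 CPM against 7.87, 7.58 and 8.63 CPM. Its mean fell from 19.2 ± 1.76 to 8.03 ± 0.541 CPM (SD, n = 3 each), a log2 fold change of -1.27 (standard error 0.10, adjusted p = 1.49e-11, edgeR). BLM lies on chromosome 15 from 91260577 to 91359396 and RMI2 on chromosome 16 from 11343476 to 11475519, both on the plus strand.

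The other dissolvasome genes were not called lower in the edgeR fit with TMM scaling. TOP3A, the topoisomerase of the complex, rose by a log2 fold change of 0.18 (adjusted p = 0.0121, edgeR), a call lost under GC and length offsets. RMI1 was at -0.14 (adjusted p = 0.361, edgeR) and ran from -0.226 to -0.0475 when 1 library was left out. Under GC and length offsets it was called lower (-0.359). WRN, the helicase mutated in Werner syndrome, fell by 0.89 (from 56.0 to 30.3 CPM, adjusted p = 1.85e-12, edgeR).

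The structure-specific nucleases, which cut the joints that are not dissolved, changed little. MUS81, the catalytic subunit of a flap and junction nuclease, was at 30, 28.9 and 33.3 CPM in the vector libraries and at 22.5, 22.4 and 24.7 CPM in the shMETTL3 libraries. The groups did not overlap, and the mean went from 30.7 ± 2.33 to 23.2 ± 1.29 CPM (SD, n = 3 each), a log2 fold change of -0.41 (standard error 0.076, adjusted p = 3.27e-05, edgeR). EME1, its partner, was at 10.1, 9.70 and 9.93 CPM against 7.92, 7.78 and 7.81 CPM. The groups did not overlap, and the fall from 9.92 ± 0.222 to 7.84 ± 0.0754 CPM (SD, n = 3 each) was called (log2 fold change -0.34, standard error 0.11, adjusted p = 0.00869, edgeR), except when scaled by library size alone. Exons of MUS81 overlap those of CFL1 and EFEMP2 over 14.13% of bases and those of EME1 overlap LRRC59 over 16.42%, all on the other strand. CFL1, at 773 CPM in the vector libraries, fell by 0.44 on the log2 scale, and LRRC59, at 251 CPM there, rose by 0.35. With the strand setting not given, reads over these shared exons cannot be told apart, so the values of MUS81 and EME1 are uncertain to that extent. MUS81 lies on chromosome 11 from 65624597 to 65635124 and EME1 on chromosome 17 from 48450581 to 48458844, both on the plus strand. SLX4, the scaffold of several nucleases, was at -0.13 (adjusted p = 0.247), and the resolvase GEN1 at 0.21 (adjusted p = 0.0685, edgeR). GEN1 was called higher in 4 of the 15 alternatives, and SLX4 was called lower under GC and length offsets (-0.202).

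Genes whose products work as partners did not always move together. For 13 pairs the log2 ratio of the raw counts was taken within each library, a measure that does not depend on the scaling between libraries. The ratio itself also carries the lengths of both transcripts, so only its difference between groups is read. In 8 pairs the ratios of the groups did not overlap, each with a two-sided exact permutation p of 0.1 (adjusted p = 0.163 over the 13 pairs), the smallest that 3 against 3 libraries allow. No share over other pairs of genes was taken. For single genes, the CPM of the groups did not overlap in 69.4% of all genes tested. The shifts follow from the fold changes of the members given above and are not a separate result. The widest shift was in TOP3A to BLM, with ratios of 1.05, 0.76 and 1.25 in the vector group against 2.57, 2.37 and 2.84 in the shMETTL3 group. The topoisomerase transcript thus stood higher against its helicase by 1.57 on the log2 scale, and RMI1 stood higher against RMI2 by 1.11. In the kinase pairs, CHEK1 to ATR went from 0.37, 0.39 and 0.68 to -1.23, -0.76 and -0.77, a difference of -1.40. CHEK2 to ATM moved by -0.98. FANCL to UBE2T, ligase subunit to E2, went from -1.95, -2.02 and -2.08 to -0.57, -0.75 and -0.75, a difference of 1.33. The other 3 were RAD51C to XRCC3 (0.95), RAD51D to XRCC2 (0.72) and BRCA2 to PALB2 (-0.63). The count of XRCC3 is uncertain, since 76.68% of its exonic bases overlap KLC1 on the other strand.

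In 5 pairs the ratios overlapped between groups. FANCD2 to FANCI was at -1.82, -1.65 and -1.54 in the vector libraries and at -1.65, -1.58 and -1.66 in the shMETTL3 libraries, a difference of 0.043 (two-sided exact permutation p = 0.8), so that both fell by a like amount within this spread. MUS81 to EME1 differed by -0.065 (exact permutation p = 0.5). In the sensor complex, the differences were -0.034 for MRE11A to RAD50 and 0.00033 for NBN to RAD50 (exact permutation p = 0.7 and 1.0). Both rest on the uncertain count of RAD50, where 76.9% of exonic bases overlap another gene on the same strand. BRCA1 to BARD1 differed by -0.28 (exact permutation p = 0.2).

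**Figure D3:**
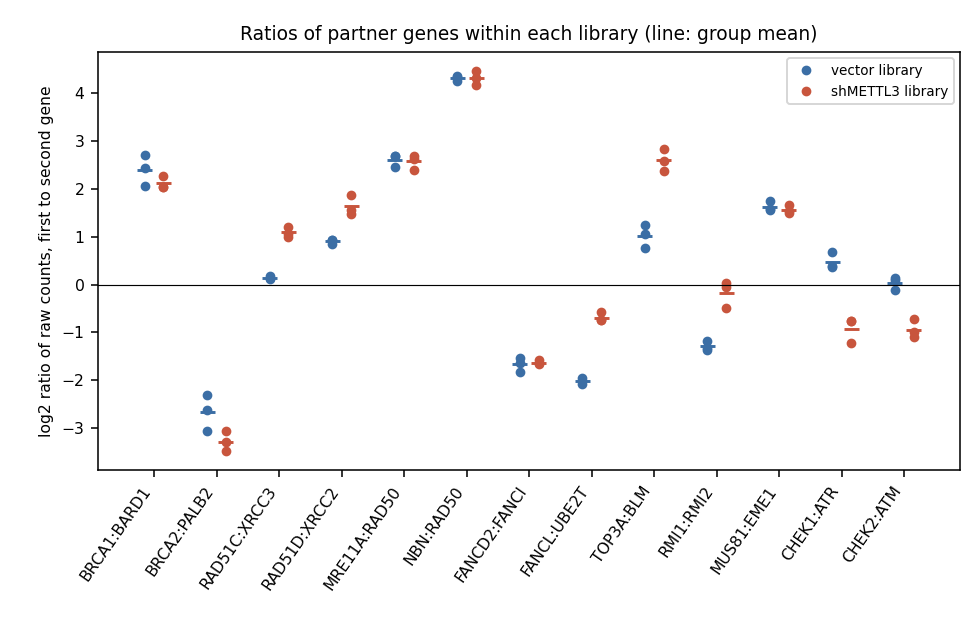
Log2 ratio of the raw counts of 13 partner pairs within each library, with vector libraries in blue, shMETTL3 libraries in red and a line at each group mean. The groups are apart in 8 pairs, most in TOP3A to BLM (1.02 against 2.59 on average), and overlap in FANCD2 to FANCI.

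Levels can be compared between genes only per length. Per kb of the canonical transcript, UBE2T was highest in the vector libraries at 54.2 CPM per kb, followed by FANCI at 19.9, FANCG at 18.0, CHEK2 at 16.6 and NBN at 15.9 CPM per kb, and BRCA2 was lowest at 0.239 CPM per kb. In the shMETTL3 libraries UBE2T was still highest at 25.7 CPM per kb, and NBN, at 15.3, stood above FANCI at 10.1 and FANCG at 9.22 CPM per kb. Transcript features were also set beside the calls. The median canonical transcript of the 19 that fell was 3023 bases long with a GC content of 44.8%, against 5302 bases and 41.7% for the 6 that rose and 5478 bases and 38.4% for the 17 not called. Over all tested genes with a transcript these medians were 3232 bases and 48.3%, and the same order held there, with 2899 bases and 51.3% for all genes that fell and 3733 bases and 46.0% for all that rose. The letters GGACT, the commonest core of the m6A motif, occurred at a median of 0.988 per kb in members that fell, 0.989 in those that rose and 0.871 in those not called, against 0.918 per kb over all tested genes (0.971 in all that fell and 0.889 in all that rose). At least 1 GGACT was present in 41 of the 42 transcripts, or 97.6%, against 90.1% of all, and the members' transcripts are longer. No methylation was measured in these libraries.

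Other genes of the same pathways, from a list of 49, moved in both directions. Of the 44 that were tested, 18 fell and 10 rose, with a median log2 fold change of -0.20. Thus 40.9% of them fell and 22.7% rose, beside 32.9% and 33.7% of all genes, and the difference from the 42 genes was not tested. The largest falls were of the helicase RECQL4 (-1.0, adjusted p = 5.91e-11), the checkpoint clamp subunit RAD9A (-0.79, adjusted p = 3.48e-07) and RAD51AP1 (-0.60, adjusted p = 1.74e-04, edgeR). The largest rises were of BRCC3, the X-linked deubiquitinase of the BRCA1-A complex (1.11, adjusted p = 1.47e-11), of EME2, the other partner of MUS81 (1.11, adjusted p = 2.07e-09), and of the recombination mediator SWI5 (0.69, adjusted p = 8.3e-08, edgeR). EME2 went from 6.54 ± 0.874 to 14.2 ± 0.711 CPM (SD, n = 3 each), so that its level rose while that of EME1 fell. Exons of EME2 overlap neighbouring genes on the other strand.

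Other repair pathways did not share 1 direction. Of the end-joining genes 3 rose and 5 fell of 11 tested (45.5% lower, median -0.13, from PRKDC at -0.59 to LIG4 at 0.58), of the mismatch repair genes 3 rose and 3 fell of 7 (42.9% lower, median 0.05), and of the nucleotide excision repair genes 7 rose and 4 fell of 15 (26.7% lower, median 0.13). Of the base excision repair genes 14 fell and 1 rose of 18 (77.8% and 5.56%, beside 32.9% and 33.7% of all genes), with a median of -0.48, led by the glycosylase NEIL3 at -1.46. Genes of the cell cycle fell further than the 42 genes. Of 34 S phase genes, 29 fell and 1 rose (median -0.57, summed level 1700-1760 against 1160-1190 CPM), with CDT1 lowest at -1.79, and all 20 mitosis genes fell (median -1.22, summed level 1730-1780 against 805-813 CPM), with KIF20A lowest at -1.54. These levels moved with those of the falling members, and their part in the falls was not tested. In bulk RNA, fewer cells in S phase or mitosis and less of these transcripts per cell cannot be told apart.

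**Figure D4:**
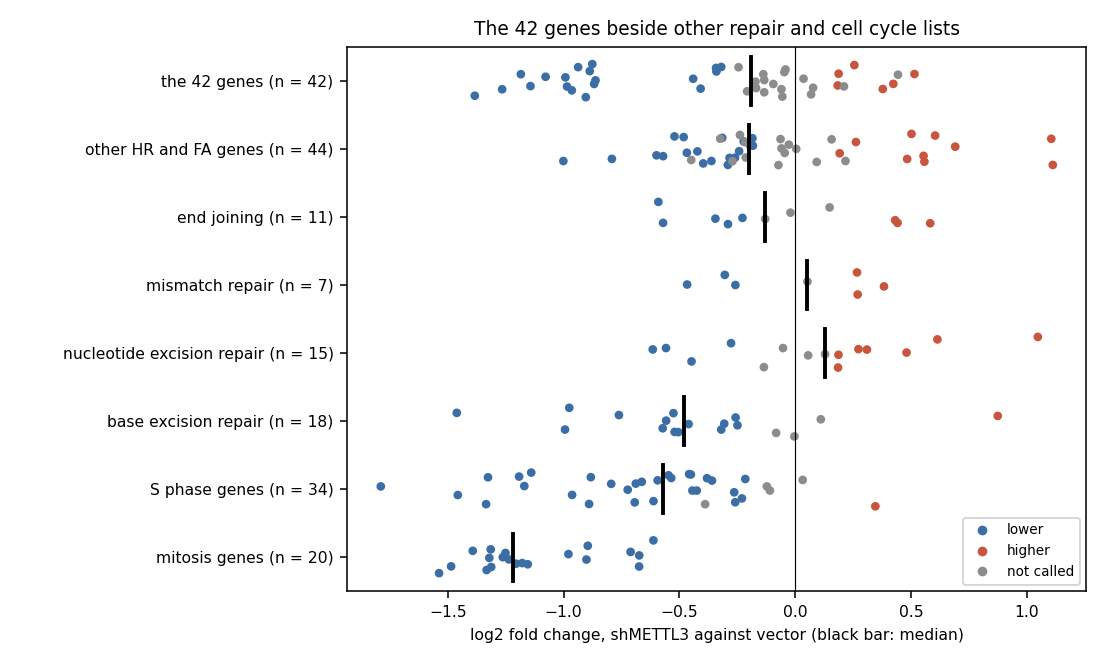
Log2 fold change of each tested gene, shMETTL3 against vector, in the 42 genes and in 7 other lists, with the vertical spread within a row for display only and a black bar at each median. Blue genes fell, red genes rose and grey genes were not called. The medians run from 0.13 in nucleotide excision repair through -0.19 in the 42 genes to -1.22 in mitosis.

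The calls of the 14 largest falls, and those of PALB2, RAD51D, ATR, RAD52 and MUS81, were kept in each of the 15 alternatives of scaling, filter, test, covariates and left-out libraries. The others were less certain. RBBP8 kept its call in 8 alternatives, XRCC2 in 10, FANCL in 12, and BRCA1, EME1 and TOP3A in 14 of the 15. No alternative changed how reads over exons shared with neighbours, such as those of XRCC3, FANCA, MUS81 and EME1, were counted.

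**Figure D5:**
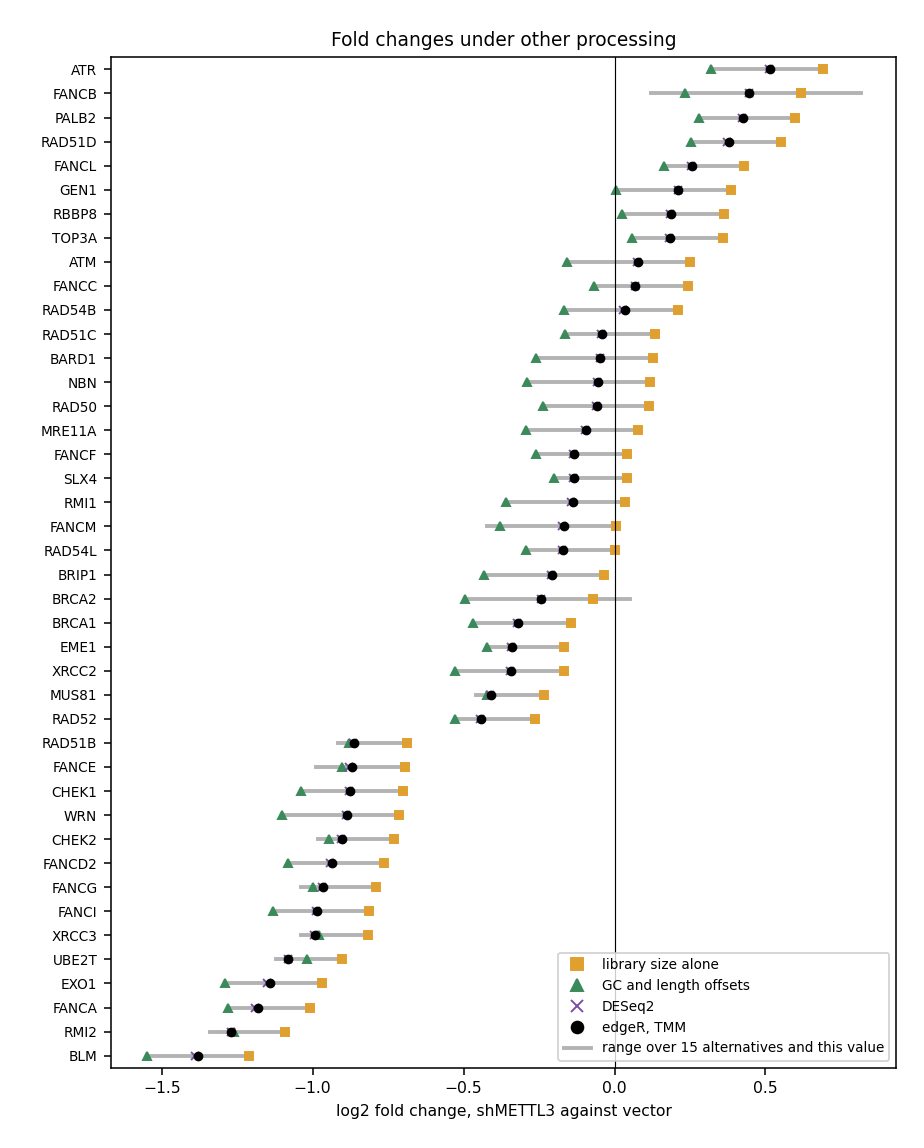
Log2 fold change of each of the 42 genes under other processing, ordered by the value of the edgeR fit with TMM scaling (black). Squares are scaling by library size alone, triangles offsets for GC content and length, crosses DESeq2, and grey lines the range over all 15 alternatives. The squares lie to the right and most triangles to the left of the black points, and the 14 largest falls stay below 0 throughout.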

How the data were processed

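The authors trimmed the reads with cutadapt, mapped them to hg19 with HISAT2 and deposited raw counts per gene from HTSeq, as whole numbers without normalization. The submitters' processing notes name cutadapt 3.0, HISAT2 2.2.1, SAMtools 1.13, HTSeq 0.13.5 and DESeq2, while the paper's text names other versions of HISAT2 and HTSeq. The annotation and strand setting of the counting are not given in the sources used here. Groups and replicate numbers came from the sample titles, and no column was left unused.

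The counts were fitted with edgeR 4.0.16 in R 4.3.3 (TMM, filterByExpr, glmQLFit, glmQLFTest, group only), with Benjamini-Hochberg adjustment over the 15125 of 57781 rows that passed the filter. CPM are TMM-scaled, standard errors come from the coefficient and the F statistic, and partner ratios were taken on raw counts with 0.5 added. Library totals were 18858098, 17586295 and 17756057 for vector and 18046241, 19108928 and 14931426 for shMETTL3, and floors cover counting error only. Pairs of libraries within a group had a chi-square per degree of freedom of 2.64 to 6.9, so none was a copy of another. The alternatives used DESeq2 1.42.0, limma-voom (limma 3.58.1), other scalings and filters, a replicate block, offsets for GC content and length (loess span 0.3), stricter thresholds and each library left out. Exact permutation tests used scipy 1.17.1. Positions, lengths and GC content came from GENCODE v44 on GRCh37 (hg19), promoters from RefSeq on GRCh38.p14. The functions were tested on simulated counts. Libraries of the same replicate number had correlations of the deviations of 0.0516, -0.00663 and 0.0333, and those of unlike numbers ran from -0.0606 to 0.0265. All were small, but they cannot exclude a culture or batch shared by replicate number.

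Every member is given, with library values for the 2 largest absolute fold changes in each of 9 role groups, and of the other pathway genes the 3 largest rises and the 3 largest falls. A further gene that the rule names is not reported here. The members, lists and rules were chosen with earlier results of these data known.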

Additional observations from a re-analysis of the deposited data

How the results depend on the processing

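The count of members changed stayed between 22 and 30 over the 15 alternatives of scaling, filter, test, covariates and left-out libraries, against 25, with 22 in DESeq2 (FANCL, RBBP8 and XRCC2 lost) and 30 under GC and length offsets (FANCL, RBBP8 and TOP3A lost, ATM, BRCA2, BRIP1, FANCF, MRE11A, NBN, RMI1 and SLX4 gained). Over all genes the share called was 66.6%, with 61.1% in DESeq2, 69.6% under these offsets and 36.8% with no filter, where 28913 genes were tested and 24 members called. Library size alone also gave 25, but with BRCA1, EME1 and XRCC2 lost and ATM, FANCC and GEN1 gained. It was 21 at an adjusted p under 0.01 and 15 with an absolute log2 fold change of at least 0.5. The median log2 fold change of the members was -0.0159 when scaled by library size alone and -0.401 under GC and length offsets. With 1 library left out it ran from -0.289 (without vector replicate 3) to -0.176. The members' median GC content is 42.1% against 48.3% over all genes, and 13867 of the tested genes had values. The count of members higher was 3 with these offsets and 3 at an adjusted p under 0.01, and 1 with an absolute log2 fold change of at least 0.5. With 1 library left out, the count of members changed ran from 22 to 26, of members higher from 4 to 6 and of members lower from 18 to 20. ATM turned from 0.078 to -0.158 with the offsets and was called there. With the replicate number as a replicate block, 25 members were called, and they were the same 25, so the block changed no call. The calls of TOP3A (0.18), RBBP8 (0.19), FANCL (0.26), BRCA1 (-0.32), EME1 (-0.34) and XRCC2 (-0.34) were lost in some of the 15 alternatives. Calls on larger changes than these were kept in all 15.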

Other observations

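A few pathway genes outside the 42 were nearly unread in these libraries. MDC1, a scaffold of the DNA damage response, had 1 count in each vector library and 3, 2 and 1 counts in the shMETTL3 libraries. RTEL1, a helicase that disassembles recombination intermediates, had 5, 4 and 1 counts against 13, 9 and 10. The near-identical copies SLX1A and SLX1B, which encode the nuclease partner of SLX4, had at most 2 counts in any library. Of their exonic bases, 52.94% in RTEL1, 85.62% in SLX1A and 64.4% in SLX1B overlap other genes on the same strand, and the annotation used for counting is not given in the sources used here, so these rows are not read as levels. None of these genes was tested, and they were named here after their counts were seen.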
